A study of Mus musculus with 64 samples.

Results

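Mammary tumors with both copies of Abi1 deleted were compared with tumors of a control mouse that kept both copies. The knockout tumors were tumors 1 and 6 of mouse G174 (Abi1 fl/fl, Cre+), and the control tumors were tumors 6 and 9 of mouse G184 (Abi1 fl/fl, Cre-). They were chosen by the mouse and genotype in the labels, which gave 32 of the 64 lane files of the series, 4 of its 8 tumors and 2 of its 4 mice. All were female PyMT mice, in which middle T antigen of polyomavirus, made by the mammary gland, drives tumors. Both mice carried 2 floxed copies of Abi1, and G174 also carried Cre recombinase under the mouse mammary tumor virus (MMTV) promoter. That promoter is active in mammary epithelium, so immune, vascular and connective tissue cells in a G174 tumor can keep Abi1. The PyMT and floxed lines were C57BL6 and the Cre line was of mixed strain. The labels and most records of the study give G184 as fl/fl, Cre-, but its growth records list a G184 among the fl/wt, Cre- mice and a G184a among the fl/fl, Cre- mice. The genotype of the labels is used here, and the difference between the records was not resolved. G184 was older than G174 by the records of the study. Each genotype was a single mouse, so the genotype and any other difference between these mice cannot be told apart, and a p-value reflects how far tumors of the same animal spread. The remaining tumors came from heterozygous mice, namely tumors 6 and 8 of G144 (fl/wt, Cre-) and tumors 3 and 6 of G164 (fl/wt, Cre+).

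Abi1 is a subunit of the WAVE complex, which passes signals from the small GTPase Rac to the Arp2/3 complex and so starts branched actin filaments at the leading edge of a moving cell. In the same tissue, interferon-gamma from T cells and natural killer (NK) cells acts on tumor, stromal and immune cells. It switches on guanylate-binding proteins, antigen presentation, the chemokines that attract T cells, and checkpoint ligands such as PD-L1.

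Total RNA was sequenced as stranded libraries after ribosomal RNA had been removed, and the genes summed to 66798302 and 67587829 counts in G174 and 69264893 and 66117015 counts in G184, where the 8 tumors ranged from 50346075 to 69264893 counts. Levels are given in CPM, the count of a gene scaled to a common library size, always for tumors 1 and 6 of G174 and tumors 6 and 9 of G184 in that order. Changes are log2 fold changes of G174 over G184 with their standard error, from the quasi-likelihood test of edgeR over 22187 genes and all 8 tumors. A gene was called higher or lower at an adjusted p under 0.05. The call of a named gene is said to hold where it was kept in each of the 8 fits that left out 1 tumor, as it was for 82 of 217 named genes that were called. Tumor 9 of G184 mattered most: without it 129 of the 217 lost their call.

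The tissue label was checked against marker genes. Epcam, a surface protein of epithelial cells, was measured at 1318 and 1168 CPM in G174 and 906 and 933 CPM in G184, and the luminal keratins Krt8 and Krt18 lay between 615 and 850.5 CPM in these 4 tumors. The skeletal muscle genes Acta1, Ckm and Myh4 stayed between 0.0305 and 0.587 CPM, and by edgeR none of the 15 muscle genes or 7 red blood cell genes tested was called (0 and 2 at an unadjusted p under 0.05, none by DESeq2). Epcam was called higher in G174 (log2 fold change 0.43 ± 0.11, adjusted p = 0.0455), but the call was lost in 7 of the 8 fits that left out a tumor, with an adjusted p of 0.164 without tumor 9 of G184.

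Abi1 itself fell in the knockout. It lies on chromosome 2 (GRCm38, 22940073 to 23040241, minus strand) and was measured at 8.93 and 6.47 CPM in G174 and 114 and 122 CPM in G184. Both G174 tumors lay below the 6 other tumors, and G144 held 111 and 130.1 CPM (log2 difference of G184 from G144 −0.03, adjusted p = 0.918). Abi1 fell by 3.94 on the log2 scale (15.3-fold, standard error 0.18, adjusted p = 0.000297), and the call held, with fold changes from −4.19 to −3.70. In heterozygotes, which share no tumor with this comparison, Abi1 measured 63.1 and 66.7 CPM in G164 (log2 fold change −0.89, adjusted p = 0.0362). 

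Of the 14 genes of the WAVE complex and its partners, 4 were called lower, against 7.70% of all genes, and none higher by edgeR (1 at an unadjusted p under 0.05 and 1 by DESeq2). Their median log2 fold change was −0.24, beside −0.00 over all genes. The other 3 that fell were Rac2, Cyfip2 and Nckap1l. Rac2, the Rac GTPase of blood cells, was measured at 3.38 and 4.46 CPM in G174 and 12.5 and 12.5 CPM in G184 (log2 fold change −1.67 ± 0.22, adjusted p = 0.0077), and both G174 tumors lay below the 6 others. Nckap1l, the blood cell form of a WAVE subunit, was measured at 28.6 and 27.6 CPM in G174 and 59.5 and 73.7 CPM in G184 (log2 fold change −1.25, adjusted p = 0.00635), and here both G184 tumors lay above the 6 others. Cyfip2, a WAVE subunit that binds Rac, was measured at 4.11 and 3.57 CPM in G174 and 11.5 and 12.7 CPM in G184 (log2 fold change −1.65, adjusted p = 0.00619). All 4 calls held. The widely expressed subunits and Rac1 did not pass the test: the log2 fold change was −0.04 for Nckap1, −0.43 for Cyfip1, −0.13 for Brk1, −0.30 for Wasf2 and −0.16 for Rac1. Abi2, the closest relative of Abi1, was measured at 61.3 and 69.6 CPM in G174 and 48.6 and 52.6 CPM in G184 (log2 fold change 0.37 ± 0.11, adjusted p = 0.0705), with no overlap between the mice, as at 29.9% of all genes in that direction. Of the 10 subunit genes of the Arp2/3 complex, Actr2 was called higher (log2 fold change 0.38, adjusted p = 0.0466), and it lost the call in all 8 fits that left out a tumor (adjusted p = 0.191 without tumor 9 of G184). 

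Over all genes, 1208 were called higher in G174 (5.44%) and 1709 lower (7.70%), with 7017 genes at an unadjusted p under 0.05. The genes that fell did so by more: their median log2 fold change was −1.51, against 0.82 for those that rose. At least 4-fold changes were seen in 537 of the genes called lower and 194 of those called higher, and at least 2-fold changes in 1280 and 467. Protein-coding genes made up 1389 of the genes called lower and 1038 of those called higher. The numbers rest on tumor 9 of G184 more than on any other tumor, since without it 87 genes were called higher and 445 lower. In the plot of all genes, Ifi202b, Gbp5, Apol6, Gbp2 and Iigp1 lie well below 0, and the interferon-stimulated gene Ifi44l lies above it.

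**Figure D1:**
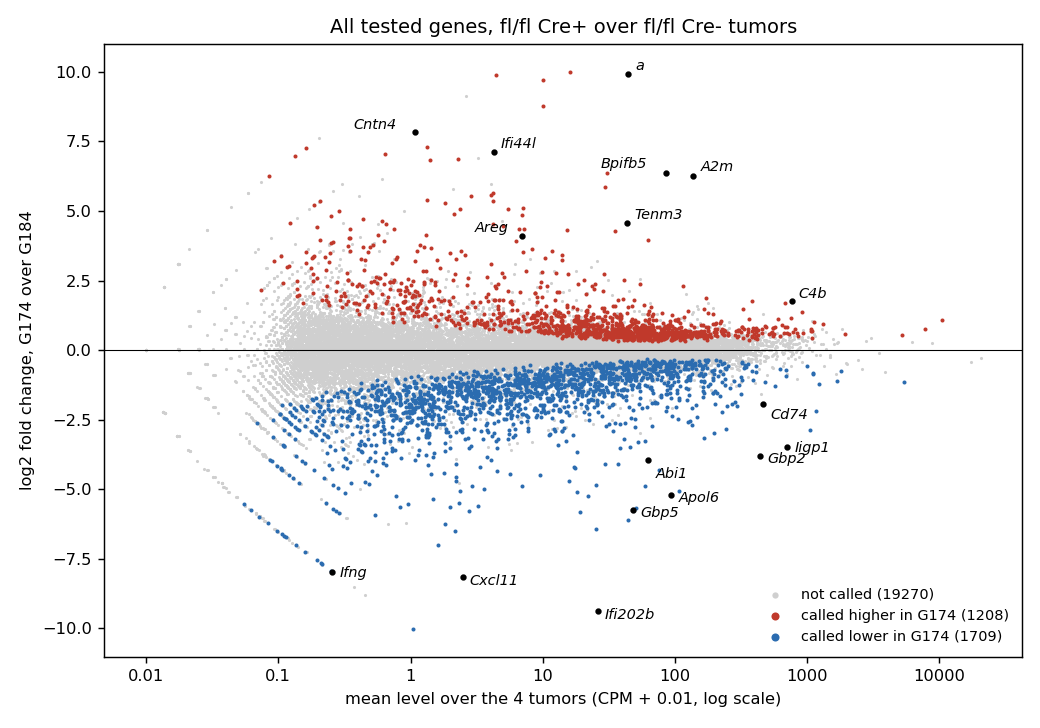
Change of each of the 22187 tested genes between the homozygous knockout and its control mouse: the horizontal axis is the mean level of the 4 tumors (CPM with 0.01 added, log scale) and the vertical axis the log2 fold change of G174 over G184. The 1208 genes called higher are red, the 1709 called lower are blue, uncalled genes are gray, and named genes are black. The genes called lower reach farther below 0 than most of those called higher reach above it.

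Both mice stood apart from the others at many of these genes. Of the 1709 genes called lower, both G184 tumors lay above the 6 other tumors at 840 (49.2%, against 9.36% of all tested genes), and both G174 tumors lay below the 6 others at 829 (48.5%, against 9.28%). Of the 1208 genes called higher, both G184 tumors lay below the 6 others at 674 (55.8%, against 9.19%) and both G174 tumors above them at 427 (35.3%, against 7.18%). These shares use the tumors that made the calls and are a description. Over all tested genes the 2 mice did not overlap at 6633 genes with G174 lower (29.9%) and at 6627 with G174 higher (29.9%).

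The other Cre-negative mouse was set beside G184 as a control after the values had been seen. Against G144, 8 genes were called higher in G174 (0.0361%) and 12 lower (0.0541%), with 2743 at an unadjusted p under 0.05, while G184 differed from G144 at 1368 genes called higher (6.17%) and 1419 lower (6.40%). These comparisons share tumors and differ in genotype as well, since G144 carries 1 floxed copy. In all, 12 genes were called against both controls in the same direction, 5 lower and 7 higher, and Abi1 was among the 5. They are named because the count is small, and were chosen after their values were seen. Sytl5, a Rab effector of vesicle transport on chromosome X, was measured at 0.335 and 0.542 CPM in G174 and 3.29 and 3.51 CPM in G184, with 2.51 and 2.46 CPM in G144 (log2 fold change −2.95, adjusted p = 0.00291 against G184). Slc5a5, the sodium iodide transporter, was measured at 4.19 and 3.09 CPM in G174 and 7.20 and 6.28 CPM in G184, with 13.5 and 12.8 CPM in G144 (log2 fold change −0.89, adjusted p = 0.0313 against G184). Both G174 tumors lay below the 6 others for both genes. The other 2 that were lower against both controls were 1810010D01Rik (log2 fold change −2.33, adjusted p = 0.00337) and the pseudogene Gm13453 (log2 fold change −3.04, adjusted p = 0.00358). Gm13453 was low in both Cre-positive mice, at 0.335 and 0.256 CPM in G174 and 0.343 and 0.305 CPM in G164. In G184 it was at 2.19 and 2.70 CPM and in G144 at 2.71 and 1.90 CPM. 1810010D01Rik was highest in G164 (7.32 and 7.17 CPM). Of these 5, the call of Slc5a5 against G184 was kept in 1 of the 8 fits that left out a tumor (adjusted p = 0.101 without tumor 9 of G184), and the others held. 

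Among the 7 that were higher against both controls, Cadm1, a cell adhesion molecule of the immunoglobulin family, was measured at 145 and 146 CPM in G174 and 66.5 and 81.4 CPM in G184, with 54.4 and 49.8 CPM in G144 and 50.4 and 49.2 CPM in G164 (log2 fold change 0.97 ± 0.12, adjusted p = 0.00605). Pla2g7, which breaks down platelet-activating factor, was measured at 50.05 and 49.1 CPM in G174 and 32.2 and 31.4 CPM in G184, with 20.3 and 23.1 CPM in G144 (log2 fold change 0.64 ± 0.11, adjusted p = 0.0152). Both G174 tumors were the highest of the 8 for both genes. The gene a (agouti signaling protein, a pigment regulator) was measured at 60.9 and 116 CPM in G174 and 0.0988 and 0.0777 CPM in G184, and the adhesion protein Cntn4 at 2.18 and 2.06 CPM in G174 and 0.0141 and 0 CPM in G184. These were high in both Cre-positive mice and near 0 in both Cre-negative mice: G164 held 122 and 123 CPM of a and 4.92 and 5.61 CPM of Cntn4, and G144 held 0.0762 and 0.0538 CPM and 0 and 0.0359 CPM. The pseudogenes Gm13394 (33.5 and 31.1 CPM in G174 and 0.0423 and 0.0155 CPM in G184, 20.5 and 21.2 CPM in G164) and Gm8116 (2.255 and 2.69 CPM in G174 and 0.183 and 0.0932 CPM in G184, 2.15 and 2.26 CPM in G164) were also higher in both Cre-positive mice than in both Cre-negative mice. Gm9855 was high in G174 alone (5.39 and 5.87 CPM, against 0.127 and 0.109 CPM in G184 and 0.248 and 0.273 CPM in G164). Reads of processed pseudogenes can come from their parent genes, so these values are uncertain. The calls of 6 of the 7 genes held, and that of Pla2g7 was lost without tumor 1 of G174 or without tumor 9 of G184 (adjusted p = 0.0931 for the latter). 

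Of the 47 gene lists, the interferon-inducible GTPases, proteins that attack the vacuoles of intracellular microbes, had the lowest median. Of 18 genes, 17 were called lower, against 7.70% of all genes, and the median log2 fold change of the list was −3.64, beside −0.00 over all genes. Summed over the list, the level was 654 and 579 CPM in G174 and 5450 and 4263 CPM in G184. The lymphocyte markers moved with it: the 18 T cell genes summed to 13.7 and 16.5 CPM in G174 and 60.5 and 54.2 CPM in G184, and the 15 genes of NK cells and cytotoxic effectors to 8.70 and 9.67 CPM in G174 and 48.9 and 44.5 CPM in G184, with Ifng the single gene of these at 0 counts in both G174 tumors. Their part in the result was not tested. In bulk tumors, fewer cells of a type and less RNA per cell cannot be told apart, here and in the results on immune genes that follow. At the 17 genes called lower, both G184 tumors were the highest of all 8, against 9.36% of all tested genes. The 17 were also called higher in G184 than in G144, where 6.17% of all genes were. With G144 as the control, the list of G174 had a median log2 fold change of 0.45, with 14 of 18 genes above 0 and none called. In heterozygotes (G164 against G144), where 2.72% of all genes were called higher and 1.29% lower, 7 of the 18 were called higher. At least 16 of the 17 kept their call whichever tumor was left out.

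Interferons act on the promoters of such genes through the interferon-stimulated response element (ISRE), bound by complexes that hold IRF factors, and the gamma-activated site (GAS). Promoters of 4 of the genes are shown to let the core of the element be compared between genes that fell and Gbp2b, the single member with a fold change above 0. The 4 were not chosen by size of change: Irgm1 fell least of the called genes of the list (log2 fold change −1.855). Windows of Tgtp1 and Tgtp2, which fell more, are not shown. The windows reach from 250 bases before to 50 bases after the start site, come from RefSeq for GRCm38.p6 and are written in the direction of the gene, with the ISRE core (GAAANNGAAA, or TTTCNNTTTC on the other strand) in capitals. They are Gbp2 at chr3:142620413-142620712 (plus strand), Gbp5 at chr3:142496684-142496983 (plus strand), Irgm1 at chr11:48871371-48871670 (minus strand) and Gbp2b at chr3:142594597-142594896 (plus strand).
Gbp2: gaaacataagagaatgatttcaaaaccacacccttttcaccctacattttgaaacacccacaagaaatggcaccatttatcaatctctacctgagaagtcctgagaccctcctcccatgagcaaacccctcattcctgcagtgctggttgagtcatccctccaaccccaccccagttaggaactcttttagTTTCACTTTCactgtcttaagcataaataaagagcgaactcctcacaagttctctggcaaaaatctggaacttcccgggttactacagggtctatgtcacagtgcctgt
Gbp5: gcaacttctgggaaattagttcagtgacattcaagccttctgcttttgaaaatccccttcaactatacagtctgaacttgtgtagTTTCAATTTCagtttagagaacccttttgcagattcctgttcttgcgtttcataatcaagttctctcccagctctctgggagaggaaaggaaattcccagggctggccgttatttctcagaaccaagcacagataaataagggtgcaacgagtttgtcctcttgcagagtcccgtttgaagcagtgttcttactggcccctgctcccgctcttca
Irgm1: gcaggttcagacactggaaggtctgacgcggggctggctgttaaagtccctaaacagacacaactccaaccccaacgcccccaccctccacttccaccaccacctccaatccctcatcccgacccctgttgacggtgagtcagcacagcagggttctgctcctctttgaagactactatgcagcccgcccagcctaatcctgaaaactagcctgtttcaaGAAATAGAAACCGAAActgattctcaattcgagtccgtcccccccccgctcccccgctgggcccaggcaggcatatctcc
Gbp2b: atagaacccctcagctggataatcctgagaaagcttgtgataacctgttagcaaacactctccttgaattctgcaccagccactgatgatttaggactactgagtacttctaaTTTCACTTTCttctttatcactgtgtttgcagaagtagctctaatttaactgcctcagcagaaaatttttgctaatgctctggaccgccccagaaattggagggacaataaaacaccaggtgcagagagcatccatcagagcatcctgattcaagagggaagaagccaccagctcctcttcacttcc

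The first core began 59 bases before the start of Gbp2, 165 before Gbp5, 30 before Irgm1 and 137 before Gbp2b. The cores of Irgm1 overlap each other. Of the 18 GTPase genes, 10 had a promoter among the 32817 windows, and all 10 of these held the ISRE core, which 3.43% of all windows held. The GAS core (TTCNNNGAA, which reads the same on both strands) was found at 6 of the 10, against 8.29% of all windows. By gene, the ISRE core was found at 129 of 1126 genes called lower (11.5%), 26 of 842 called higher (3.09%) and 502 of 13286 tested genes with a window (3.78%). It was found at 11 of 18 type I interferon-stimulated genes, 5 of 19 genes of MHC class I and peptide loading, 1 of 9 of MHC class II, 3 of 23 chemokines and 0 of 10 T cell genes. A match is a description of these letters and not a binding site.

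Gbp2 was measured at 58.5 and 60.1 CPM in G174 and 963 and 682 CPM in G184 (log2 fold change −3.79 ± 0.24, adjusted p = 0.00088). Gbp5, which promotes assembly of the inflammasome, was measured at 1.402 and 2.14 CPM in G174 and 104 and 85.4 CPM in G184 (log2 fold change −5.74 ± 0.37, adjusted p = 0.00088). Iigp1, of the immunity-related GTPases, was measured at 136 and 97.1 CPM in G174 and 1402 and 1196 CPM in G184 (log2 fold change −3.48 ± 0.33, adjusted p = 0.00312). In each of these both G184 tumors stood above the 6 others. G144 held 44.7 and 53.8 CPM of Gbp2 and 1.57 and 2.53 CPM of Gbp5. Gbp4 was measured at 7.53 and 4.97 CPM in G174 and 239.5 and 177 CPM in G184 and Gbp10 at 0.807 and 0.527 CPM in G174 and 47.0 and 28.1 CPM in G184, and the log2 fold change was −5.06 for Gbp4 (adjusted p = 0.00118) and −5.81 for Gbp10 (adjusted p = 0.006). Gbp11 (log2 fold change −6.24, adjusted p = 0.00371) had the largest fall of the list. Tgtp1 (log2 fold change −4.31, adjusted p = 0.00769) and Tgtp2 (log2 fold change −4.84, adjusted p = 0.0045) are near-identical copies whose reads cannot be divided with certainty. The calls of all these genes held. Gbp2b differed: its log2 fold change was 1.47 and did not pass the test. 

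Upstream of these genes, interferon-gamma itself (Ifng) had no count in either G174 tumor and 38 and 29 counts in G184 (0.536 and 0.451 CPM). Against a floor of 3 counts over the G174 tumors it was at least 21.8-fold lower. It was called lower (adjusted p = 0.0114), and the call was lost in 1 of the 8 fits, that without tumor 9 of G184 (adjusted p = 0.0577). Of its receptor genes, Ifngr1 was called lower (log2 fold change −0.60) and Ifngr2 higher (log2 fold change 0.59), but without tumor 9 of G184 the adjusted p was 0.162 and 0.107. Irf8, a factor of the IRF family, was measured at 11.02 and 10.5 CPM in G174 and 38.5 and 43.4 CPM in G184 (log2 fold change −1.93 ± 0.19, adjusted p = 0.00324). The factor Batf2 (log2 fold change −4.47, adjusted p = 0.00171) and the feedback inhibitor Socs1 (log2 fold change −2.04, adjusted p = 0.0045) fell as well, and G184 was the highest mouse for all 3 genes. These calls held. Of 19 genes of interferon receptors and signaling, 13 were called lower and 1 higher (median −0.69), of which 6 kept their call without tumor 9 of G184. Of all genes, 7.70% were called lower and 5.44% higher. Jak1, Tyk2 and both chains of the type I receptor did not pass the test, with log2 fold changes of −0.06, 0.04, 0.25 (Ifnar1) and 0.04 (Ifnar2). Against G144, 13 of the 19 fold changes of G174 were above 0 and 6 below (median 0.21), with none called. In G184, 12 of the 19 were called higher than in G144, where 6.17% of all genes were. 

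**Figure D2:**
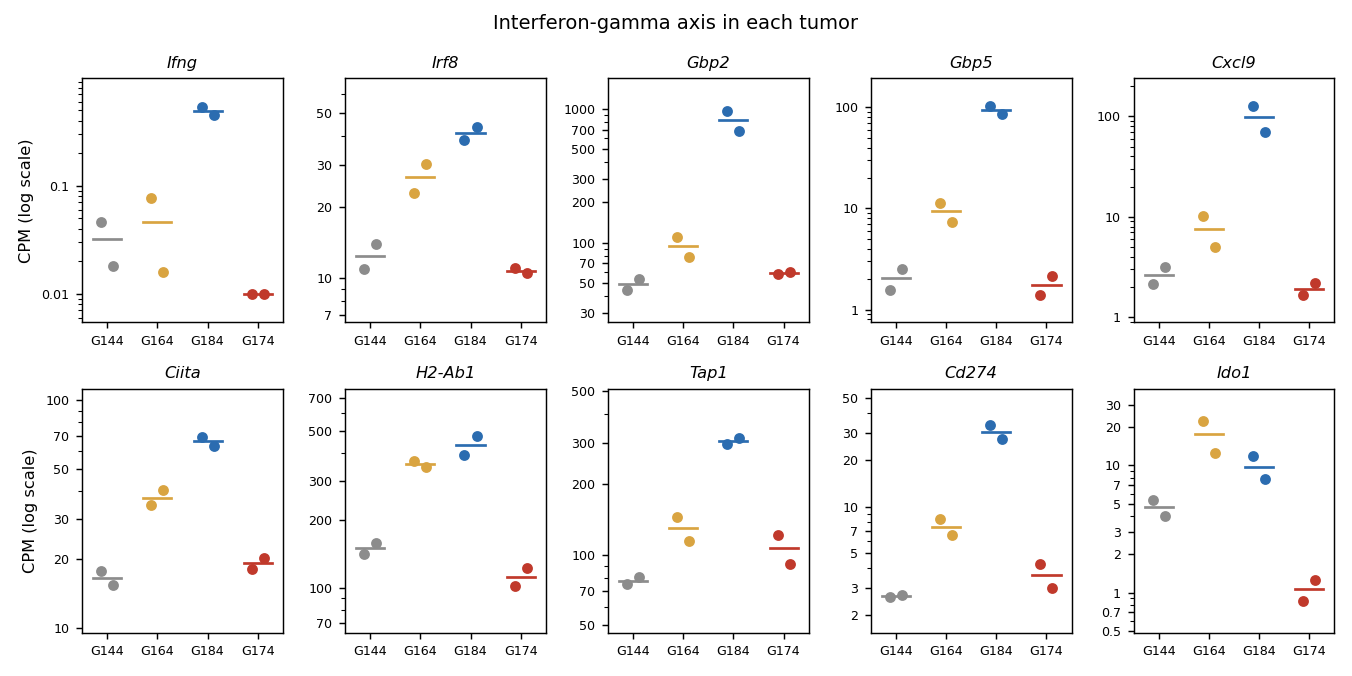
Level of 10 genes along the interferon-gamma axis in each of the 8 tumors (points, CPM on a log scale that differs between panels; lines are the means of the 2 tumors of a mouse; tumors with no count are drawn at 0.01 CPM). The G184 tumors lie above both G174 tumors in every panel, and for Gbp2, Gbp5, Cxcl9, Ciita and Cd274 the G174 tumors lie near those of G144.

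Of 25 genes that answer type I interferon, 19 were called lower and 1 higher, against 7.70% and 5.44% of all genes. Their median log2 fold change was −1.24, and the level summed over the list was 2167 and 1522 CPM in G174 and 3463 and 4785 CPM in G184. Against G144 all 25 fold changes of G174 were above 0 (median 0.76), with none called. Without tumor 9 of G184 only 2 of the 20 calls were kept, and 6 in a fit of the 4 compared tumors alone. Oas3, which makes the messenger that activates RNase L, was measured at 21.5 and 13.4 CPM in G174 and 56.5 and 87.7 CPM in G184 (log2 fold change −2.05, adjusted p = 0.0151, with adjusted p = 0.0784 without tumor 9 of G184), and Ifit2 at 59.0 and 51.1 CPM in G174 and 166 and 219 CPM in G184 (log2 fold change −1.81, adjusted p = 0.0106, with adjusted p = 0.0607 without it). Ifi44l went the other way, at 10.1 and 6.79 CPM in G174 and 0.0847 and 0.0311 CPM in G184 (log2 fold change 7.12 ± 0.46, adjusted p = 0.00088). Both G184 tumors were the lowest of the 8 for Ifi44l, and G144 held 4.89 and 6.33 CPM and G164 27.2 and 19.6 CPM. Its relative Ifi44 had a log2 fold change of −0.83 and was not called. Ifi202b, a DNA-binding protein of the interferon-inducible p200 family, was measured at 0.0457 and 0.105 CPM in G174 and 36.2 and 67.9 CPM in G184 (log2 fold change −9.39 ± 0.59, adjusted p = 0.00088), and in G144 and G164 it did not exceed 0.289 CPM. Apol6, an apolipoprotein L, was measured at 4.42 and 5.53 CPM in G174 and 167 and 199 CPM in G184 (log2 fold change −5.20 ± 0.21, adjusted p = 0.000295), with both mice apart from all others. Ubd, an interferon-induced ubiquitin-like protein (log2 fold change −4.70, adjusted p = 0.00358), and the GTPase-like Gm4841 (log2 fold change −6.43, adjusted p = 0.00132) fell too. The calls of Ifi44l, Ifi202b, Apol6, Ubd and Gm4841 held. 

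Genes of antigen presentation were lower in G174 than in G184 for both classes of MHC. The counts of both classes are read beside 7.70% of all genes called lower. In class I and peptide loading 16 of 21 genes were called lower, and their median log2 fold change was −0.999, and 3 kept their call without tumor 9 of G184. Tap1, which carries peptides into the endoplasmic reticulum, was measured at 122 and 91.9 CPM in G174 and 299 and 317 CPM in G184 (log2 fold change −1.53 ± 0.17, adjusted p = 0.00483). The non-classical class I gene H2-M3 (log2 fold change −1.64, adjusted p = 0.00356) and the peptide transporter Tap1 kept their calls throughout, while B2m, the light chain, lost its call (log2 fold change −1.23, adjusted p = 0.0187) without tumor 6 of G174 (adjusted p = 0.0523) and without tumor 9 of G184 (adjusted p = 0.103). The classical heavy chains H2-K1 and H2-D1 did not pass the test, with log2 fold changes of −0.49 and −0.55. Against G144, 18 of the 21 class I fold changes of G174 were above 0 and 3 below (median 0.26), with none called. In G184, 17 of the 21 were called higher than in G144, where 6.17% of all genes were. In class II, 10 of 12 genes were called lower (median −1.97), and at least 8 kept their call whichever tumor was left out. Ciita, the master activator of class II genes, was measured at 18.1 and 20.3 CPM in G174 and 69.3 and 63.1 CPM in G184 (log2 fold change −1.79 ± 0.14, adjusted p = 0.00159). The class II chain H2-Aa was measured at 109.7 and 123 CPM in G174 and 416 and 523 CPM in G184 (log2 fold change −2.01, adjusted p = 0.00118), and the invariant chain Cd74 at 183 and 204 CPM in G174 and 659 and 824 CPM in G184 (log2 fold change −1.94, adjusted p = 0.00118). H2-Ab1 (log2 fold change −1.94, adjusted p = 0.00143) and H2-Eb1 (log2 fold change −2.002, adjusted p = 0.00179) moved with them. For these 4 chain genes G184 was the highest and G174 the lowest of the 4 mice, and the calls of all 5 held. 

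Among the chemokines, 16 of 31 genes were called lower and none higher (1 at an unadjusted p under 0.05 and none by DESeq2), with a median of −1.41, and 7 kept their call without tumor 9 of G184. Counts of chemokine and receptor genes are read beside 7.70% of all genes called lower and 5.44% higher. The 3 ligands of Cxcr3, which draw in activated T cells, were among the chemokines called lower. Cxcl9 was measured at 1.66 and 2.18 CPM in G174 and 128 and 69.5 CPM in G184 (log2 fold change −5.68 ± 0.50, adjusted p = 0.00235) and Cxcl10 at 1.72 and 1.81 CPM in G174 and 36.2 and 28.9 CPM in G184 (log2 fold change −4.20 ± 0.32, adjusted p = 0.00159). Cxcl11 had 1 count in each G174 tumor and 6.17 and 3.67 CPM in G184, a ratio of 329 with a 95% counting interval of 90.6 to 2719 (adjusted p = 0.00159). G184 was the highest mouse for all 3. The annotation lists Cxcl11 as a polymorphic pseudogene. Their receptor Cxcr3 (0.183 and 0.331 CPM in G174 and 1.59 and 1.62 CPM in G184) fell by 2.63 on the log2 scale (adjusted p = 0.00696). Cxcl13, which guides B cells (log2 fold change −5.36, adjusted p = 0.00213), Ccl22, which guides regulatory T cells (log2 fold change −3.87, adjusted p = 0.0105), Ccl5 (log2 fold change −1.68, adjusted p = 0.00737) and the monocyte receptor Ccr2 (log2 fold change −1.93, adjusted p = 0.00235) were also lower. All these calls held. Of the 20 chemokine receptors, 8 were called lower (median −1.47), and 4 kept their call without tumor 1 of G174 or without tumor 9 of G184. The neutrophil chemokines Cxcl1, Cxcl2 and Cxcl5 were not called, with log2 fold changes of −0.13, −0.30 and 0.36. 

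Of 20 checkpoint genes, 13 were called lower and 1 higher (median −1.60), and 8 of the 14 calls were kept without tumor 9 of G184. Counts of checkpoint and cytokine genes are read beside 7.70% of all genes called lower and 5.44% higher. Cd274, which encodes PD-L1, was measured at 4.27 and 3.01 CPM in G174 and 33.6 and 27.4 CPM in G184 (log2 fold change −3.07 ± 0.24, adjusted p = 0.00159), and G174 did not lie below G144 (2.62 and 2.69 CPM). Pdcd1lg2, which encodes PD-L2, was measured at 0.0762 and 0.0151 CPM in G174 and 1.44 and 0.668 CPM in G184 (log2 fold change −4.48, adjusted p = 0.0115). Ido1, which breaks down tryptophan, was measured at 0.853 and 1.26 CPM in G174 and 11.8 and 7.80 CPM in G184 (log2 fold change −3.20, adjusted p = 0.00619), and G174 was the lowest of the 4 mice. The receptors Icos (log2 fold change −3.19, adjusted p = 0.00358) and Tigit (log2 fold change −3.02, adjusted p = 0.0106) were lower too. The calls of these 5 genes held, though that of Tigit was lost when counts of both strands were taken (log2 fold change −1.30, adjusted p = 0.0657). Vsir, which encodes the ligand VISTA, was called higher (log2 fold change 0.74, adjusted p = 0.0292), and this call was kept in 2 of the 8 fits that left out a tumor (adjusted p = 0.115 without tumor 9 of G184). Of 18 cytokines, 7 were called lower and Il12a higher, and 2 kept their call without tumor 9 of G184. Il12b, a chain of interleukin-12, fell and held (log2 fold change −3.19, adjusted p = 0.00314). The other chain, Il12a, was measured at 12.9 and 3.51 CPM in G174 and 0.198 and 0.124 CPM in G184 (log2 fold change 5.65, adjusted p = 0.0248), and it lost the call without tumor 1 of G174 (adjusted p = 0.0624), tumor 6 of G184 (adjusted p = 0.0856) or tumor 9 of G184 (adjusted p = 0.147). 

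T cell genes were lower in the knockout tumors, and their count is read beside 7.70% of all genes called lower. All 18 of the list were called lower (median −2.04), and between 10 and 15 kept their call as each tumor was left out in turn, with 10 without tumor 1 of G174 or without tumor 6 of G184 and 12 without tumor 9 of G184. Both G174 tumors were the lowest of the 8 at 13 of the 18, against 9.28% of all tested genes. Cd3e, a chain of the T cell receptor complex, was measured at 0.564 and 0.422 CPM in G174 and 2.98 and 2.60 CPM in G184 (log2 fold change −2.50 ± 0.25, adjusted p = 0.00356), and the costimulatory receptor Cd28 at 0.274 and 0.346 CPM in G174 and 1.91 and 1.35 CPM in G184 (log2 fold change −2.38, adjusted p = 0.00756). Cd5 (log2 fold change −2.96, adjusted p = 0.0127), a surface receptor of T cells, fell in the same way. The calls of these 3 genes held, though that of Cd5 was lost in a fit of the 4 compared tumors alone (adjusted p = 0.0508). The coreceptors Cd4 and Cd8a were both called, with log2 fold changes of −1.55 and −1.64, and that of Cd8a held while Cd4 kept its call in 2 of the 8 fits (adjusted p = 0.179 without tumor 9 of G184). Foxp3, the factor of regulatory T cells, was measured at 0.0457 and 0.0301 CPM in G174 and 0.762 and 0.420 CPM in G184 (log2 fold change −3.90, adjusted p = 0.0156), and its call was lost without tumor 1 of G174 (adjusted p = 0.0567), tumor 6 of G174 (adjusted p = 0.0613) or tumor 6 of G184 (adjusted p = 0.0508). When counts of both strands were taken, the log2 fold change of Foxp3 was −0.24 and it was not called (adjusted p = 0.552). Against G144, all 18 fold changes of the list were below 0 (median −0.67) and none was called. 

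Of 15 genes of NK cells and cytotoxic effectors, 13 were called lower (median −2.45), and 7 kept their call without tumor 9 of G184. Of all genes, 7.70% were called lower. Gzmb, a protease of cytotoxic granules, was measured at 2.07 and 1.63 CPM in G174 and 10.2 and 8.92 CPM in G184 (log2 fold change −2.37 ± 0.23, adjusted p = 0.00353), and the activating receptor Klrk1 at 0.670 and 0.768 CPM in G174 and 8.27 and 8.31 CPM in G184 (log2 fold change −3.52, adjusted p = 0.00128). At both genes G184 was the highest and G174 the lowest mouse. The factors Eomes (log2 fold change −2.82, adjusted p = 0.00631) and Tbx21 (log2 fold change −2.50, adjusted p = 0.00962), which direct cytotoxic and helper cells, fell as well, and all 4 calls held. Of 17 genes of B and plasma cells, 2 were called lower, against 7.70% of all genes. One of them, Ighm, the heavy chain of immunoglobulin M, was measured at 2.21 and 3.45 CPM in G174 and 28.2 and 26.1 CPM in G184 (log2 fold change −3.26 ± 0.32, adjusted p = 0.00324, held). The B cell markers Ms4a1 and Cd79a were at most 0.621 CPM in all 4 tumors and were not called, and the plasma cell markers Igkc and Jchain overlapped between the mice. 

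Among myeloid genes, those of dendritic cells, which present antigen to T cells, were lower. The myeloid counts are read beside 7.70% of all genes called lower. Of 14 dendritic cell genes, 10 were called lower (median −1.43), and 5 kept their call without tumor 9 of G184. Clec9a, a receptor for dead cells, was measured at 0.122 and 0.0753 CPM in G174 and 4.43 and 4.57 CPM in G184 (log2 fold change −5.49 ± 0.30, adjusted p = 0.000446), with both mice apart from the others. The chemokine receptor Xcr1 of the same cells was measured at 0.183 and 0.166 CPM in G174 and 1.62 and 1.21 CPM in G184 (log2 fold change −3.01, adjusted p = 0.00737), and Flt3, the receptor for their growth factor, at 0.487 and 0.467 CPM in G174 and 2.58 and 2.33 CPM in G184 (log2 fold change −2.36, adjusted p = 0.00992). These 3 calls held. Of 19 macrophage genes, 12 were called lower (median −0.88), and Aif1 (6.78 and 6.85 CPM in G174 and 18.5 and 23.4 CPM in G184, log2 fold change −1.62, adjusted p = 0.00628) was the only one whose call was kept without tumor 9 of G184. The receptor Csf1r was measured at 51.6 and 55.1 CPM in G174 and 104 and 156 CPM in G184 (log2 fold change −1.29, adjusted p = 0.013, with adjusted p = 0.0519 without tumor 9 of G184 and 0.0542 without tumor 1 of G174), and Cd68 was not called (log2 fold change −0.24). Of 10 neutrophil and mast cell genes 2 were called lower, Kit and Csf3r, and neither kept its call without tumor 9 of G184 or without tumor 1 of G174. S100a8 and S100a9 were not called. 

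Of 19 complement genes, 11 were called lower and C4b higher (median −0.85), and 2 kept their call without tumor 9 of G184. Those 2 were the proteases of the first component, C1ra (8.23 and 8.23 CPM in G174 and 29.0 and 26.8 CPM in G184, log2 fold change −1.76, adjusted p = 0.00218) and C1s1 (17.7 and 15.2 CPM in G174 and 62.5 and 39.3 CPM in G184, log2 fold change −1.63, adjusted p = 0.00813). Of all genes, 7.70% were called lower and 5.44% higher. C4b, another complement component, was measured at 1530 and 828 CPM in G174 and 372 and 322 CPM in G184 (log2 fold change 1.76, adjusted p = 0.032). Its call was lost in most of the fits that left out a tumor. 

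**Figure D3:**
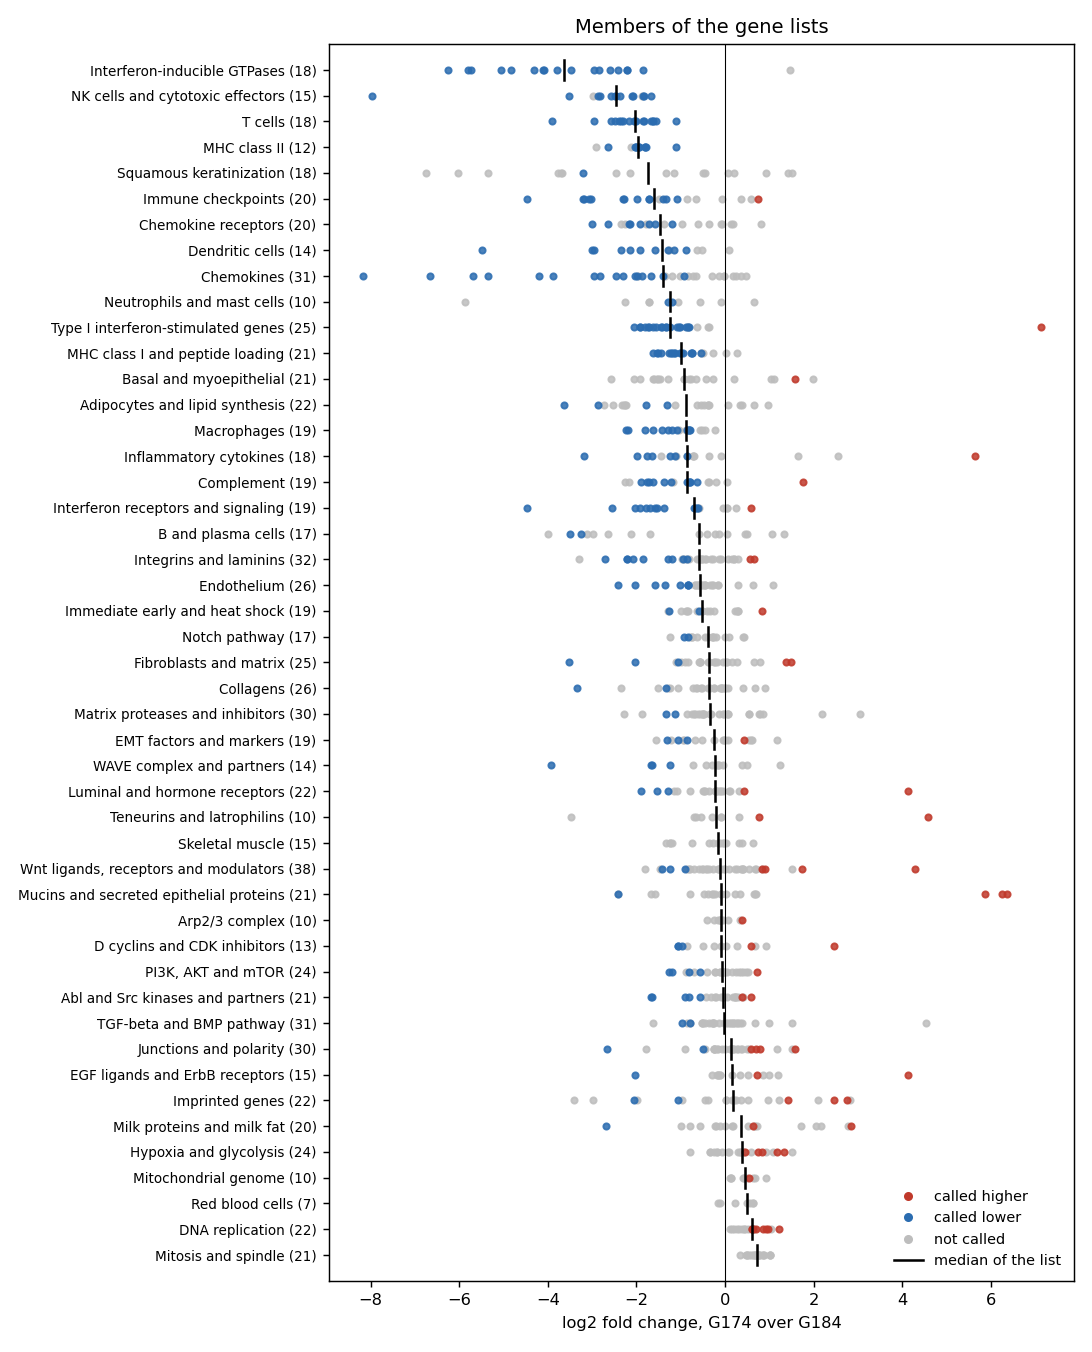
Log2 fold change of G174 over G184 for each tested member of the gene lists (points) with the median of each list (bar). Red points were called higher, blue points lower and gray points were not called. Lists of interferon targets, antigen presentation and lymphocytes have medians below 0, down to −3.64 for the GTPases, while the 21 mitosis and 22 DNA replication genes all lie above 0.

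The vessel genes called lower included adhesion molecules for white blood cells. Counts of vessel and integrin genes are read beside 7.70% of all genes called lower and 5.44% higher. Of 26 endothelial genes 8 were called lower (median −0.56), and 2 kept their call without tumor 6 of G174 or without tumor 9 of G184. The adhesion molecule Sele, E-selectin, was measured at 0.335 and 0.271 CPM in G174 and 1.98 and 1.27 CPM in G184 (log2 fold change −2.42 ± 0.31, adjusted p = 0.00709, held). Vcam1, the counter-receptor for the integrin of Itga4, was measured at 26.0 and 22.4 CPM in G174 and 62.1 and 136 CPM in G184 (log2 fold change −2.03, adjusted p = 0.017), and it lost its call without tumor 1 (adjusted p = 0.0568) or tumor 6 (adjusted p = 0.062) of G174. The general endothelial genes Pecam1 and Cdh5 were not called (log2 fold changes −0.45 and −0.30). Of 32 integrin and laminin genes, 9 were called lower and 2 higher, with 6 of these calls kept without tumor 9 of G184. The integrins of white blood cells Itgal (log2 fold change −2.22, adjusted p = 0.00309), Itga4 (log2 fold change −2.07, adjusted p = 0.00159) and Itgb7 (log2 fold change −2.21, adjusted p = 0.00872) fell and held, and the epithelial integrins Itga6, Itgb4 and Itgb1 were not called (log2 fold changes 0.21, −0.28 and 0.16). 

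The epithelial lists are read against the 5.44% of all genes called higher and 7.70% called lower. Of 22 luminal and hormone receptor genes 2 were called higher and 3 lower (median −0.22). Areg, a ligand of the EGF receptor, was measured at 9.45 and 16.8 CPM in G174 and 0.931 and 0.575 CPM in G184 (log2 fold change 4.12 ± 0.48, adjusted p = 0.00581), and both G184 tumors were the lowest of the 8. Ly6a, a stem cell antigen that interferon also induces, was measured at 33.4 and 28.5 CPM in G174 and 117 and 112 CPM in G184 (log2 fold change −1.89, adjusted p = 0.00324). Both calls held. Foxa1 was called lower (log2 fold change −1.53, adjusted p = 0.0249) and lost the call without tumor 1 of G174 (adjusted p = 0.0825), tumor 6 of G174 (adjusted p = 0.0782) or tumor 9 of G184 (adjusted p = 0.107), and Esr1, Pgr and Gata3 were not called (log2 fold changes −0.78, −0.45 and −0.50). Of 21 basal and myoepithelial genes Cdh3 was called higher (log2 fold change 1.57, adjusted p = 0.0465), but lost the call in most of the fits that left out a tumor. None was called lower by edgeR. At an unadjusted p under 0.05, 6 were lower and 1 higher, and DESeq2 called 2 lower and 1 higher. Krt5, Krt14, Trp63 and Acta2 were not called (log2 fold changes −1.92, −1.61, −1.51 and −1.30). Neither were Krt17, Lgr5 and Krt15 (1.99, 1.11 and 1.04). Krt5, Krt14 and Acta2 spread widely within a mouse (5.01 to 41.7 CPM of Krt14 in G174 and 40.9 to 101 CPM in G184). Trp63 was at 14.4 to 22.2 CPM in G174 and 29.3 to 75.1 CPM in G184 (adjusted p = 0.07). 

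Of 30 junction and polarity genes 4 were called higher and 2 lower (median 0.14), and 1 kept its call without tumor 1 of G174 or without tumor 9 of G184. Claudin Cldn8 was measured at 82.7 and 58.5 CPM in G174 and 28.01 and 19.2 CPM in G184 (log2 fold change 1.58, adjusted p = 0.0237, with adjusted p = 0.132 without tumor 9 of G184 and 0.0763 without tumor 1 of G174). E-cadherin (Cdh1) was measured at 871 and 655 CPM in G174 and 444 and 609 CPM in G184 and was not called (log2 fold change 0.54, adjusted p = 0.129). Of 19 genes of epithelial to mesenchymal transition, 3 were called lower and Epcam higher. The repressor Zeb2, also found in dendritic and NK cells, was measured at 31.0 and 27.9 CPM in G174 and 72.7 and 73.7 CPM in G184 (log2 fold change −1.31, adjusted p = 0.00619, held), while Snai1, Snai2, Twist1 and Vim were not called (log2 fold changes −0.95, −1.22, −0.52 and −0.68). Among milk genes Csn1s2a and Plin2 were called higher and Lalba lower of 20, and none of the 3 calls was kept without tumor 6 or without tumor 9 of G184. Of 18 keratinization genes Krt4, a keratin of moist squamous epithelium, was called lower (0.305 and 0.693 CPM in G174 and 3.06 and 6.17 CPM in G184, log2 fold change −3.20, adjusted p = 0.0105), and the call held, but was lost in a fit of the 4 compared tumors alone (adjusted p = 0.0516). 

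Genes of connective tissue are read against the same shares. The collagens Col1a1, Col1a2 and Col3a1 had log2 fold changes of −0.12, 0.00 and −0.06, and 2 of 26 collagens, Col4a3 and Col4a4, were called lower, and neither kept its call without tumor 1 of G174 or without tumor 9 of G184. Of 25 fibroblast and matrix genes 3 were called lower and 2 higher, with 10 called lower by DESeq2. Dcn, the proteoglycan decorin, was measured at 32.4 and 47.6 CPM in G174 and 116 and 211 CPM in G184 (log2 fold change −2.03 ± 0.30, adjusted p = 0.0106, held), and Fbln2, a matrix protein of basement membranes, rose from 90.4 and 84.5 CPM to 201 and 292 CPM (log2 fold change 1.496, adjusted p = 0.00888, with adjusted p = 0.062 without tumor 9 of G184). Of 30 proteases and inhibitors 2 were called lower, Mmp2 and Mmp3, and neither kept its call without tumor 1 or 6 of G174 or tumor 9 of G184. Of 22 adipocyte genes 4 were called lower, and 10 by DESeq2 (median −0.89). Lep, the fat cell hormone leptin, kept its call throughout (0.107 and 0.105 CPM in G174 and 1.31 and 1.35 CPM in G184, log2 fold change −3.63, adjusted p = 0.00613). Adipoq and Plin1 were not called, with 0.452 to 1.43 CPM of Adipoq in G174 and 3.31 to 6.12 CPM in G184. 

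Several genes with large rises encode secreted or membrane proteins and differed widely between the tumors of a mouse. A2m, a protease inhibitor of plasma, was measured at 186 and 357 CPM in G174 and 4.78 and 2.30 CPM in G184 (log2 fold change 6.25 ± 0.90, adjusted p = 0.00974). Bpifb5, of the family of lipid-binding proteins of airway and mouth, was measured at 83.3 and 254 CPM in G174 and 3.03 and 1.03 CPM in G184 (log2 fold change 6.37 ± 1.10, adjusted p = 0.0161), and Tenm3, a teneurin that guides nerve fibers, at 121 and 46.7 CPM in G174 and 4.37 and 2.61 CPM in G184 (log2 fold change 4.58 ± 0.57, adjusted p = 0.00658). G184 was the lowest mouse for all 3. Wif1, a secreted inhibitor of Wnt, was measured at 38.8 and 94.4 CPM in G174 and 4.53 and 2.28 CPM in G184 (log2 fold change 4.29, adjusted p = 0.0181), and the plasma protein Ahsg at 13.3 and 7.92 CPM in G174 and 0.452 and 0.171 CPM in G184 (log2 fold change 5.07, adjusted p = 0.017). The call of each of these 5 was lost in 1 of the 8 fits, that without tumor 9 of G184, where the adjusted p was 0.0698 for A2m, 0.102 for Bpifb5, 0.052 for Tenm3, 0.113 for Wif1 and 0.106 for Ahsg. Bpifb1 (55.5 and 60.9 CPM in G174 and 1.13 and 0.870 CPM in G184, log2 fold change 5.86, adjusted p = 0.0158) lost its call without tumor 6 (adjusted p = 0.0607) or tumor 9 (adjusted p = 0.107) of G184. Of 10 teneurins and latrophilins 2 were called higher, and of 21 mucins and secreted proteins 3 were called higher and 1 lower. Over all genes the shares were 5.44% higher and 7.70% lower. 

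**Figure D4:**
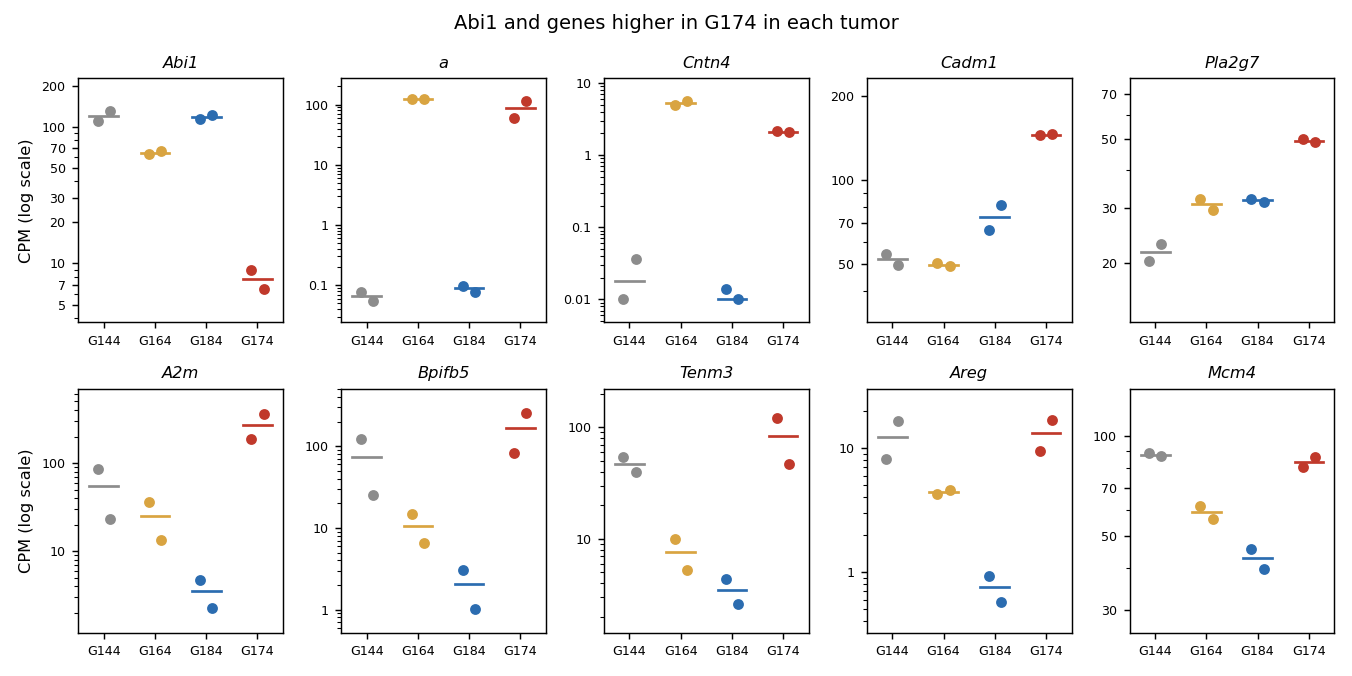
Level of Abi1 and of 9 genes called higher in the homozygous knockout in each of the 8 tumors (points, CPM on a log scale that differs between panels; lines are the means of the 2 tumors of a mouse; tumors with no count are drawn at 0.01 CPM). Abi1 is lowest in G174, and for the other genes both G174 tumors lie above both G184 tumors, while for a, Cntn4, Areg and Mcm4 the tumors of G144 or G164 lie as high as those of G174.

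Some genes were on in one mouse and off in the other, and they were chosen after their values were seen. With on defined as at least 1 CPM in both tumors and off as at most 3 counts over both, 5 genes were on in G174 alone and 3 in G184 alone of the pair. Those on in G174 were Cntn4, Gm12666, Acsm1, Gm43305 and the antisense transcript AC165951.1, and those on in G184 were Cxcl11, Gm21718 and the pseudogene AC115117.1. Gm12666 had 82 and 83 counts in G174 and 1 and 0 in G184 (ratio 169, 95% counting interval 29.9 to 6714), and Cntn4 had 143 and 137 against 1 and 0 (ratio 287, interval 51.0 to 11360). The calls of both held. The mice did not group by Cre at Gm12666, since G144 held 1.51 and 1.36 CPM and G164 0.0191 and 0 CPM. 

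Fold changes of replication and mitosis genes lay above 0. Of 22 DNA replication genes, all had a fold change above 0 (median 0.61) and 8 were called higher, against 5.44% of all genes, but 1 kept its call without tumor 9 of G184. That gene was Mcm4, a subunit of the replicative helicase, measured at 80.7 and 86.4 CPM in G174 and 45.8 and 40.0 CPM in G184 (log2 fold change 0.96 ± 0.11, adjusted p = 0.00471, held), and another subunit, Mcm2, was measured at 45.8 and 50.2 CPM in G174 and 32.0 and 27.4 CPM in G184 (log2 fold change 0.69, adjusted p = 0.013, with adjusted p = 0.073 without tumor 9 of G184). All 21 mitosis genes also had a fold change above 0 (median 0.72), and none was called by edgeR, with 15 at an unadjusted p under 0.05 and 11 called higher by DESeq2. At 15 replication and 12 mitosis genes both G184 tumors were the lowest of the 8, against 9.19% of all tested genes. Both lists were also lower in G184 than in G144 (18 and 17 genes called, against 6.40% of all genes). Against G144 all 21 mitosis and 22 replication fold changes of G174 were below 0, with none called. Of 13 D cyclin and inhibitor genes 2 were called higher and 3 lower, and none kept its call without tumor 9 of G184. The inhibitor Cdkn1c was measured at 19.4 and 13.2 CPM in G174 and 3.36 and 2.55 CPM in G184 (log2 fold change 2.46, adjusted p = 0.00851, with adjusted p = 0.0621 without that tumor) and Rb1 at 236 and 183.6 CPM in G174 and 383 and 493 CPM in G184 (log2 fold change −1.06, adjusted p = 0.0138, with adjusted p = 0.0746 without it). 

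Hypoxia and glycolysis genes were called higher at 5 of 24 (median 0.39) and lower at none by edgeR (1 at an unadjusted p under 0.05 and 1 by DESeq2), and no call was kept without tumor 9 of G184. The enolase Eno1 was measured at 623 and 630.5 CPM in G174 and 369 and 340.3 CPM in G184 (log2 fold change 0.82, adjusted p = 0.0075, with adjusted p = 0.0543 without it) and the oxygen sensor Egln3 at 145 and 178 CPM in G174 and 74.6 and 68.9 CPM in G184 (log2 fold change 1.18, adjusted p = 0.0128, with adjusted p = 0.0812 without it). Vegfa was measured at 66.7 and 143.5 CPM in G174 and 63.8 and 35.9 CPM in G184 and did not pass the test (log2 fold change 1.08, adjusted p = 0.118). Of 22 imprinted genes 3 were called higher and 2 lower, and none kept its call without tumor 9 of G184. The imprinted RNA H19 was not called (log2 fold change 2.10). Of all genes, 5.44% were called higher and 7.70% lower. Of 10 genes of the mitochondrial genome mt-Co1 was called higher, and the call was lost in all 8 fits that left out a tumor (adjusted p = 0.187 without tumor 9 of G184). 

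Of 38 Wnt genes 4 were called higher, with Wif1 first, and 3 lower, beside 5.44% and 7.70% of all genes, and 1 kept its call without tumor 9 of G184. That one was the receptor Fzd9 (16.99 and 10.8 CPM in G174 and 3.16 and 5.16 CPM in G184, log2 fold change 1.74, adjusted p = 0.0193), which lost it without tumor 1 of G174 (adjusted p = 0.0626) or tumor 6 of G184 (adjusted p = 0.0614). Axin2, a target of Wnt signaling, was not called (log2 fold change −0.14). Of 15 EGF family genes Areg and Errfi1 were called higher and Nrg1 lower, and the receptors Egfr, Erbb2 and Erbb3 were not called (log2 fold changes −0.16, 0.33 and −0.30). Of 31 TGF-beta and BMP genes 2 were called lower, as were 2 of 17 Notch genes, and none of these 4 calls was kept without tumor 9 of G184.

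Abl and Src kinases are partners of Abi1. The counts of this list and the next 2 are read beside 5.44% of all genes called higher and 7.70% lower. Of 21 such genes 5 were called lower and 2 higher, and 2 kept their call without tumor 9 of G184. One of these was Fgr, a Src family kinase of myeloid cells (2.56 and 3.22 CPM in G174 and 9.75 and 8.64 CPM in G184, log2 fold change −1.67, adjusted p = 0.00756), and its call held. Abl1, Abl2, Src and Eps8 were not called (log2 fold changes −0.20, 0.18, −0.05 and 0.22). Of 24 PI3K, AKT and mTOR genes 4 were called lower and 1 higher, and the 2 that held were lipid phosphatases: Inpp5d, that of blood cells (20.9 and 18.3 CPM in G174 and 38.4 and 52.0 CPM in G184, log2 fold change −1.20, adjusted p = 0.00999), and Inpp4b, found in luminal epithelium (8.06 and 7.33 CPM in G174 and 17.5 and 19.4 CPM in G184, log2 fold change −1.26, adjusted p = 0.00737). The catalytic subunit Pik3ca and the kinase Akt1 were not called (log2 fold changes −0.05 and 0.00). Of 19 immediate early and heat shock genes 2 were called lower and 1 higher. Hsph1, a heat shock chaperone, rose to 92.5 and 101 CPM from 52.9 and 55.3 CPM (log2 fold change 0.84, adjusted p = 0.0054, held). The stress factor Atf3 (13.7 and 15.8 CPM in G174 and 34.5 and 36.0 CPM in G184, log2 fold change −1.26, adjusted p = 0.00509) fell and held, and Fos, Jun and Egr1 were not called (log2 fold changes −0.85, −0.53 and −0.64). 

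The genes that rose were unevenly spread over the chromosomes. Chromosomes 11, 16 and 17 carried 3358 of the 22187 tested genes (15.1%) but 583 of the 1208 genes called higher (48.3%), and 209 of the 1709 called lower (12.2%). The share of tested genes called higher was 16.2% on chromosome 11, 20.3% on 16 and 17.2% on 17, against 1.77% to 6.25% on the other autosomes and X. Over genes with a mean of at least 1 CPM the median log2 fold change was 0.376, 0.336 and 0.315 on these 3, 0.206 on chromosome 8 and −0.169 on chromosome 7. The median was above 0 in all 13, 8 and 9 windows of 10 Mb with at least 20 genes on chromosomes 11, 16 and 17, and in all 12 on chromosome 8. The genes called higher there had a median log2 fold change of 0.71, against 1.02 for those on the other chromosomes.

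By tumor, deviations of genes from their median over the 8 tumors are given less the median deviation of that tumor over all chromosomes. For chromosome 11 the median deviation was 0.131 and 0.194 (log2) in G174 and −0.0680 and −0.222 in G184. For chromosome 16 it was 0.282 and 0.134 in G174 and −0.0930 and −0.0449 in G184, and for chromosome 17 0.226 and 0.0671 against −0.0814 and −0.109. Both G174 tumors lay above both G184 tumors on all 3, by unequal amounts within a mouse. Tumor 6 of G144 also stood high, at 0.182 on chromosome 17 and 0.294 on chromosome 8. Copy number of DNA was not measured. With the genes of these 3 chromosomes left out of the count, 625 genes were called higher and 1500 lower.

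**Figure D5:**
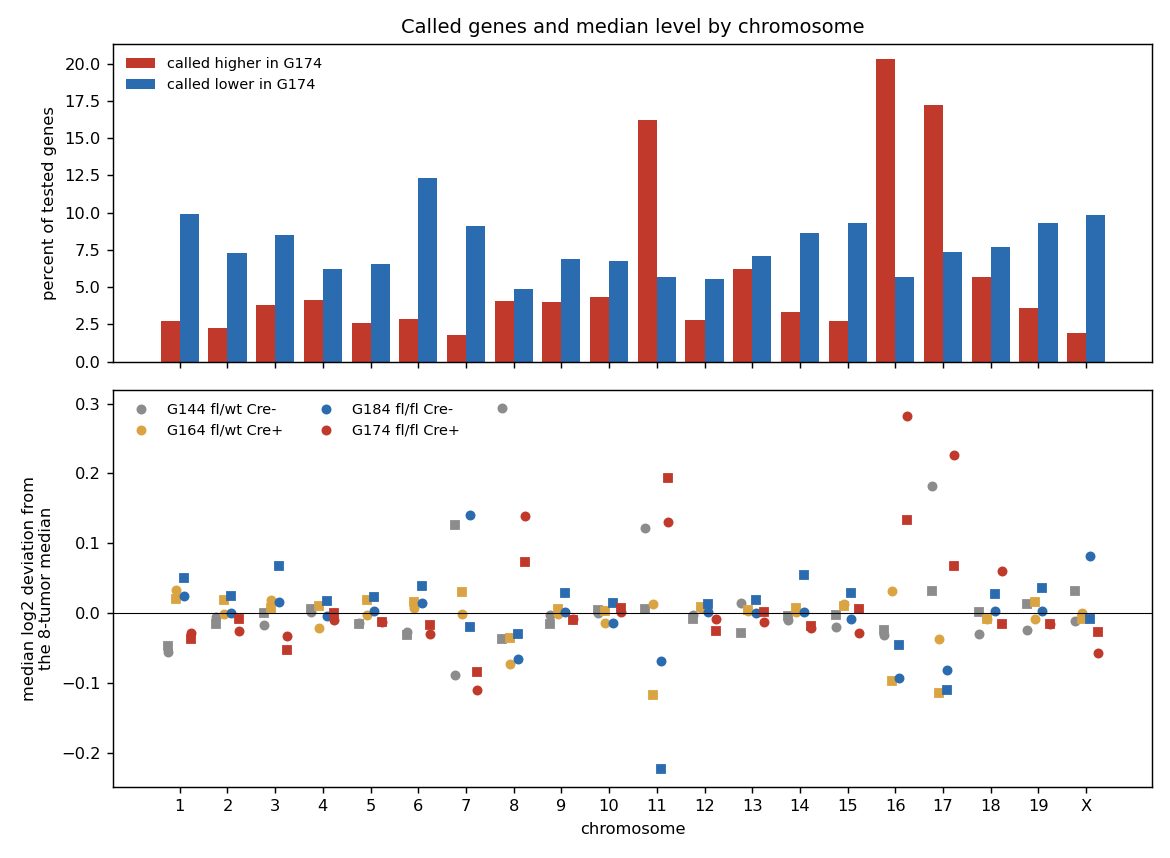
Upper panel: percent of the tested genes of each chromosome called higher (red) or lower (blue) in G174. Lower panel: median log2 deviation of the genes of a chromosome (mean of at least 1 CPM) from their median over the 8 tumors, less the median deviation of that tumor over all chromosomes. There is 1 point for each tumor, colored by mouse (circle for the lower and square for the higher tumor number). On chromosomes 11, 16 and 17 the red bars reach 16.2%, 20.3% and 17.2%, and both G174 tumors lie above 0 and both G184 tumors below 0.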

How the data were processed

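RNA of 8 mammary tumors, 2 from each of 4 mice, was sequenced as stranded total RNA in 4 lanes of 2 runs. The authors deposited whole-number counts per gene for each lane and run, made with bcl2fastq and STAR on GRCm38/mm10. The version of either tool and the release of the annotation were not given in the sources used here. Reverse-strand counts were summed over the 8 files of a tumor, and a table of counts pooled per mouse was not used for values. Genes were named from GENCODE M21. Filtering by filterByExpr left 22187 of 55385 genes, which held 99.96% of all counts. After TMM scaling, they were tested with the quasi-likelihood test of edgeR 4.0.16 (R 4.3.3, limma 3.58.1) over all 8 tumors with 1 term per mouse (common coefficient of variation 0.229, 4 residual and 3.06 prior degrees of freedom), with Benjamini-Hochberg adjustment over all tested genes. Alternatives included DESeq2 1.42.0. Tables and figures used Python 3.11.15, pandas 2.3.3 and scipy 1.17.1. Counting intervals and floors cover counting error only. Chromosome deviations by tumor used log2 of CPM with 0.5 added, less the median deviation of that tumor over all chromosomes. Chromosome medians of fold changes came from the edgeR fit. The fit was tested on simulated data.

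Members and the 47 gene lists were chosen with earlier results of these data known. The rules named 281 genes: the 15 protein-coding genes with the largest rise and the 15 with the largest fall among called genes that averaged at least 5 CPM and did not overlap between the mice, up to 6 called members with the largest change and the 2 most abundant members of each list, all members of the WAVE list, and genes detected in 1 mouse alone. Some genes are counted in the lists but not reported here by name. Other list members were named after their values were seen.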

Additional observations from a re-analysis of the deposited data

Results flagged for a closer look

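The change in homozygotes was set against that in heterozygotes (G164 over G144), a comparison that shares no tumor with it, for Abi1 and the 30 genes chosen for the largest changes. The difference (log2 fold change in homozygotes minus that in heterozygotes, quasi-likelihood test of edgeR) passed at 29 of these 31, where 25.1% of all tested genes passed it, and the adjusted p of the 29 ran from 9.58e-05 for Apol6 to 0.0255 for Chad. The 30 genes were chosen for one of the changes compared, so their count is a description. The pigment regulator a and the receptor Gpr158 did not pass.

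Abi1 fell by more in homozygotes, with a difference of −3.05. Of the GTPases, the difference was −8.40 for Gbp10, −7.94 for Gbp5, −7.17 for Gbp4, −6.65 for Tgtp2 and −5.97 for Tgtp1. Other interferon-responsive genes differed by −11.16 (Ifi202b), −7.21 (Cxcl9), −7.02 (Apol6), −6.44 (Gm4841), −5.64 (Batf2) and −5.40 (Ubd). The nuclease Dnase1l3 differed by −7.36, the choline transporter Slc5a7 by −7.04, the membrane protein Slitrk4 by −6.72 and the myeloid receptor Slamf8 by −6.08.

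Among genes that rose in homozygotes, the differences were 10.25 for the plasma protein Ahsg, 9.17 for Bpifb5, 9.05 for Bpifb1, 8.54 for Gm7298, 7.40 for A2m and 7.20 for Tenm3. Tph1, which starts serotonin synthesis, differed by 6.44, the matrix protein Chad by 5.82, Areg by 5.59, Wif1 by 5.46, the transporter Nipal4 by 5.02, the metabolic enzyme Ogdhl by 4.59 and the kinase Wnk4 by 4.58. All 13 had a log2 fold change below 0 in heterozygotes, from −5.19 for Ahsg to −0.93 for Wnk4. With 2 tumors a mouse, single tumors could not be checked as outliers.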

How the results depend on the processing

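No paired analysis was possible because G174 and G184 share only tumor number 6. The 1208 genes called higher and 1709 called lower became 1920 and 2655 with no filter on low counts, and 291 and 689 in a fit of the 4 compared tumors alone. DESeq2 called 2152 higher. Leaving out each tumor in turn gave 87 to 1090 genes called higher and 445 to 1410 lower. Alternatives chosen after seeing the data gave 8 higher and 12 lower with G144 as the control, and 625 higher without the genes of chromosomes 11, 16 and 17. Other scaling, unstranded counts, either run alone and a fold threshold of 1.5 kept both counts within 1.5 times. The share of calls that were higher was 41.4%, and 29.7% with the 4 compared tumors alone and 16.4% without tumor 9 of G184. The change of Abi1 lay between −4.19 and −3.70 as each tumor was left out. Ccr9, a chemokine receptor with a log2 fold change of −2.17, was at 0.22 (adjusted p = 0.582) with unstranded counts. No other named gene changed direction among those called in the main fit or in the setting compared. Uncalled genes were not counted for direction. Over the named genes, leaving out a tumor kept the call status 1746 times, ended a call 477 times and made one 17 times, and the other settings did so 2073, 127 and 36 times. The causes were not tested. The 2 tumors a mouse and 1 mouse a genotype set the precision.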
